A study of Saccharomyces cerevisiae BY4741 with 6 samples.

Results

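The proteasome degrades ubiquitin-tagged proteins, and the transcription factor Rpn4 keeps its genes in step. The genes described here are the 32 listed subunit genes of the yeast 26S proteasome and RPN4, 33 rows chosen by systematic name out of 5631 rows in the deposited count table. The subunits fall into 7 alpha and 7 beta subunits of the 20S core, 6 RPT and 12 RPN subunits of the 19S regulatory particle. All 33 were tested, and none was removed by the filter on low counts. Of these, 0 passed the threshold for a difference between the strains. Few genes passed at all: of 5628 tested, 0.142% were higher and 0.0355% lower in the pex3 strain. RPN4 had the largest fold change of the 33, to lower values in the pex3 strain, but its libraries overlapped with those of the wild type.

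The cells were Saccharomyces cerevisiae BY4741, a haploid laboratory strain. The pex3 strain carries a kanMX4 cassette in place of PEX3 (YDR329C), whose product is needed to form peroxisomes. The wild type (WT) is the parent, and both strains are MATa and carry his3, leu2, met15 and ura3 deletions. Each strain was grown in 3 shake flask cultures at 30 °C on mineral medium with 0.5% acetate and harvested at an optical density of 0.5. Acetate was chosen because it relieves the repression of many peroxisomal genes. Each genotype is a single stock from 1 strain collection, so the deletion is not represented by independent isolates.

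In the 26S proteasome, the 19S particle binds ubiquitinated proteins, removes the ubiquitin and unfolds them with its ring of RPT ATPases. The chain is then threaded into the 20S core, where it is cut. Rpn4 binds an element known as PACE upstream of the subunit genes. Rpn4 is itself degraded rapidly by the proteasome, so that slow proteolysis lets it accumulate and raises subunit transcription. In cells without peroxisomes, matrix proteins are still made but stay in the cytosol.

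Most of the subunit genes have the Rpn4 element upstream, and it is shown for genes that the results below return to. The motif GGTGGCAAA was searched on both strands in the 250 bases before each start codon of the R64 genome (RefSeq). It was present upstream of 27 of the 33 genes (81.8%), against 68 of 6007 nuclear protein-coding genes (1.13%). Capitals mark the match, lower case the 10 bases on either side, and each line is read along the strand that carries the motif.
PRE3: aacggaatccGGTGGCAAAaaagggaaaa
PRE2: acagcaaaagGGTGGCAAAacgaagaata
SCL1: ctatccttacGGTGGCAAAttggtgtgtg
PRE6: tttcccttccGGTGGCAAAagaatcttcg
RPT4: ctttcccttcGGTGGCAAAttccactatt
RPT6: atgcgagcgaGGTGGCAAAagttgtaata
RPN5: ttgacttttcGGTGGCAAAatgcaaaggg
RPN11: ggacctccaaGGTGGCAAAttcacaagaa

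The match lies at chrX:435045-435053 on the plus strand for PRE3 and at chrXVI:732194-732202 on the plus strand for PRE2. For SCL1 it is at chrVII:475347-475355 (plus) and for PRE6 at chrXV:255228-255236 (minus), in each case on the strand opposite to the gene. That of RPT4 is at chrXV:813812-813820 (plus), also opposite to its gene, and that of RPT6 at chrVII:411362-411370 (minus). RPN5 has its match at chrIV:190786-190794 and RPN11 at chrVI:153269-153277, both on the plus strand. Of the 27 matches, 19 lay on the same strand as the gene and 8 on the opposite one. The base after the motif was A in 18, T in 8 and C in 1 of them. They ended between 75 bases (RPT6) and 174 bases (PUP3) before the start codon, with a median of 111 bases.

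The shorter core GTGGCAAA, which every full match contains, added PRE5, PUP1 and RPN8. With it 30 of 33 genes had a match (90.9%), against 136 of 6007 windows (2.26%). These 3 are shown with the core in capitals, at chrXIII:901563-901570 (plus), chrXV:631901-631908 (minus) and chrXV:817095-817102 (minus).
PRE5: ctattatagaGTGGCAAAattaaaaatt
PUP1: acccggccgaGTGGCAAAataccaaaaa
RPN8: ggatacctcaGTGGCAAAtcgttactca

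RPN10, RPN13 and RPN4 had neither form in this window. In the RPN4 window the Yap1 motif TTACTAA with its reverse complement TTAGTAA and the Pdr1 and Pdr3 motifs TCCGCGGA and TCCGTGGA were not found. Sequence further upstream of RPN4 was not searched for these motifs or for the heat shock units named below. The absence of the Yap1 and Pdr motifs from this window therefore does not show that RPN4 lacks such sites. The Yap1 motif occurs in 6.69% of all windows, and 1 of the Pdr motifs in 0.499%. Overlapping matches to TTCNNGAA and GAANNTTC, units of the heat shock element bound by Hsf1, lay 13 and 8 bases before the RPN4 start codon, and 19.3% of all windows hold at least 1 of these units. A match of letters is a description of the window and not evidence of binding.

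**Figure D1:**
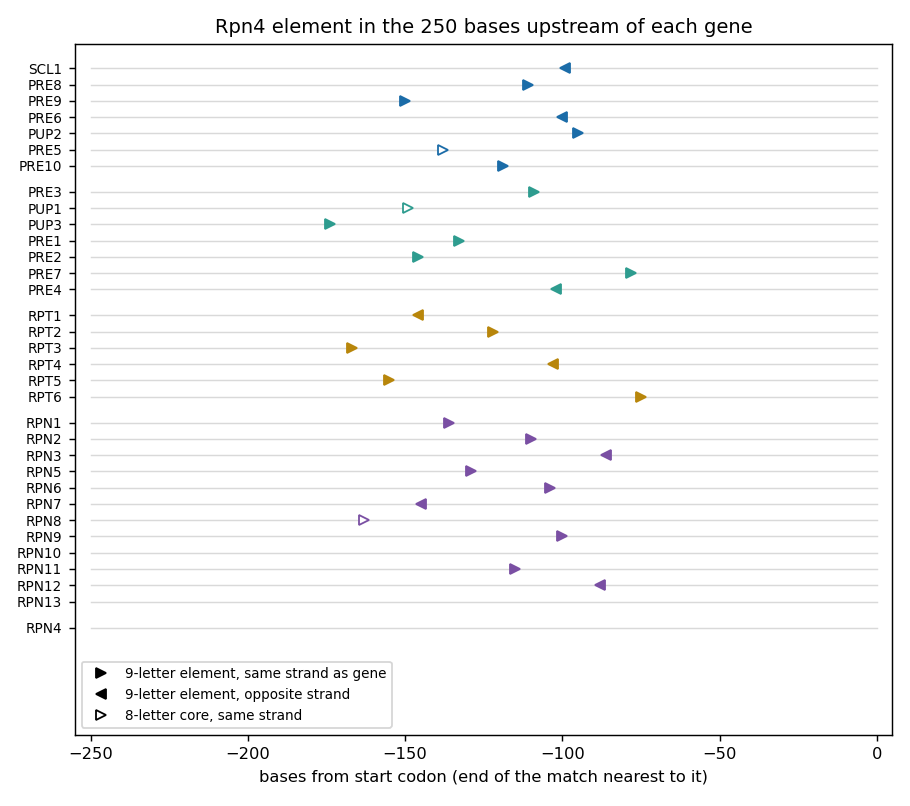
Position of the Rpn4 element in the 250 bases before the start codon of each of the 33 genes, in bases, with filled arrows for the 9-letter element and open arrows for the 8-letter core. Filled matches lie between 75 and 174 bases from the start codon, and RPN10, RPN13 and RPN4 have none.

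The libraries held between 6782522 and 9410398 counts. Each of the 33 genes had between 365 counts (RPN13) and 4870 counts (RPN1) in a library. The count of PEX3 itself was not analysed here, so the deletion was not checked and strains are named by their labels. WT replicate 1 stood apart from the other libraries on the first principal component (20.5, against -12.2 to 1.56 for the rest, 43.6% of variance). The libraries also differed in how levels depended on coding length, with a Spearman coefficient across genes from -0.39 in WT replicate 3 to 0.336 in WT replicate 1. Levels are given as CPM, counts scaled to a common library size with TMM factors, so they are shares of the mRNA pool. Less mRNA of a gene per cell and more of all other mRNA cannot be told apart.

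RPN4 (YDL020C), the regulator, measured 102, 108 and 129 CPM in the 3 pex3 libraries, against 177, 145 and 122 CPM in the 3 WT libraries. The highest pex3 library, replicate 3, lay above the lowest WT library, replicate 3, so the strains overlapped. The means were 113 ± 14.2 CPM in pex3 and 148 ± 27.8 CPM in WT (SD, n = 3 each). The log2 fold change was -0.39 (SE 0.15), a ratio of 0.762, with an edgeR unadjusted p of 0.0289 and an adjusted p of 0.507. Without WT replicate 1, the library that stood apart, the edgeR log2 fold change was -0.24 (unadjusted p 0.0838). Its edgeR unadjusted p was also above 0.05 without pex3 replicate 1 (0.0915), pex3 replicate 2 (0.0831) or WT replicate 2 (0.0556). RPN4 was the sole one of the 33 genes with an unadjusted p under 0.05 (edgeR). That is 0 of 33 higher and 1 of 33 lower (3.03%) at this unadjusted p, where 3.93% of all tested genes were higher and 5.15% lower, so the share is near the background.

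Of the 33 genes, 0 were higher and 0 lower at an edgeR adjusted p under 0.05, where 0.142% of all 5628 tested genes were higher and 0.0355% lower. DESeq2 called 0 of the 33 as well and also had 1 at an unadjusted p under 0.05. The edgeR adjusted p of the 32 subunits ran from 0.615 to 0.997. Their log2 fold changes lay between -0.11 and 0.092, with standard errors from 0.064 to 0.10. The 95% interval of each of the 32 subunits included 0. The lowest bound was -0.28 (RPN12) and the highest 0.31 (RPN13), that is a decrease of 17.4% and an increase of 23.9%. These intervals are not adjusted for the number of genes, so some may miss the true difference. They concern shares of the mRNA pool and not amounts per cell.

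The differences were small but mostly of 1 sign. Of the 33 genes, 27 had a negative fold change (81.8%), against 48.6% of all tested genes, and their median log2 fold change was -0.053, against 0.0056 over all tested genes. Without WT replicate 1 the number was 23 of 33 and the median -0.037. Leaving out WT replicate 2 instead gave 27 of 33 and a median of -0.09. The libraries did not overlap for 7 genes lower in pex3 (21.2% of 33; 7.73% of all tested genes) and 1 higher (3.03%; 8.72% of all). The 33 genes were measured in the same 6 libraries, so they are not independent observations, and no test was made of these counts. The lowest edgeR unadjusted p among the 32 subunits was 0.138 (PUP1).

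**Figure D2:**
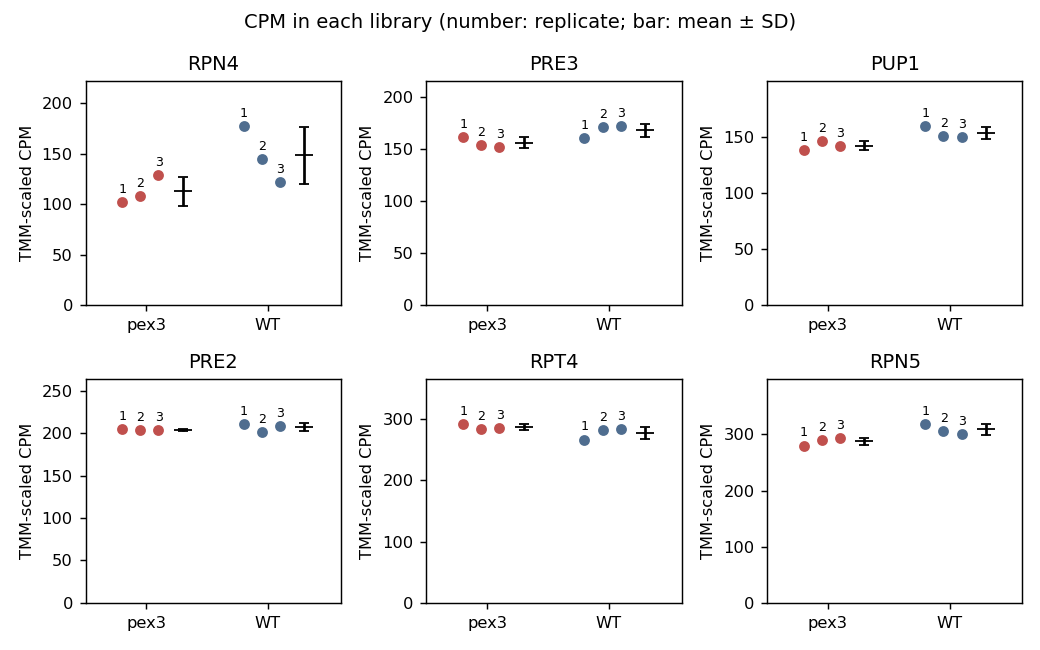
TMM-scaled CPM of RPN4, the catalytic subunit genes PRE3, PUP1 and PRE2, RPT4 and RPN5 in each pex3 and WT library, with replicate numbers and the mean ± SD of 3 libraries. RPN4 spreads from 102 to 177 CPM, while PRE2 stays between 201 and 211 CPM.

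The alpha subunits form the outer rings of the core and the gate through which substrates enter. All 7 had negative fold changes, with a median of -0.065. PRE6 (YOL038W) had the lowest, with 187, 176 and 183 CPM in pex3 and 195, 188 and 197 CPM in WT. The highest pex3 library was just under the lowest WT library, and the log2 fold change was -0.083 (SE 0.068, edgeR adjusted p 0.694). PRE5 (YMR314W) was nearest to 0, with 162, 144 and 142 CPM in pex3 and 145, 154 and 150 CPM in WT, which overlapped, and a log2 fold change that came to -0.0046 (SE 0.078, edgeR adjusted p 0.989). SCL1 (YGL011C) at -0.072 and PRE10 (YOR362C) at -0.065 did not overlap between strains. The log2 fold changes of PRE8, PRE9 and PUP2 were -0.067, -0.053 and -0.029, and their libraries overlapped.

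The beta subunits form the inner rings, and 3 of them carry the peptide-cutting sites. PRE3 (YJL001W), the caspase-like site, measured 162, 154 and 152 CPM in pex3 and 161, 171 and 172 CPM in WT. Replicate 1 of the pex3 strain lay just above replicate 1 of WT, so the strains overlapped, with the log2 fold change at -0.11 (SE 0.07, edgeR adjusted p 0.621). PUP1 (YOR157C), the trypsin-like site, measured 138, 146 and 141 CPM in pex3 and 160, 151 and 149.7 CPM in WT. All pex3 libraries lay below all WT libraries, and at -0.11 (SE 0.067, edgeR adjusted p 0.615) its log2 fold change was the lowest of the 32 subunits. PRE2 (YPR103W), the chymotrypsin-like site, measured 205, 203 and 203 CPM in pex3 and 211, 201 and 209 CPM in WT. These overlapped, with the log2 fold change at -0.023 (SE 0.066, edgeR adjusted p 0.927). The PRE2 value was -0.0087 without WT replicate 1 and -0.047 without WT replicate 2.

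Among the 4 beta subunits without a cutting site, PRE1 (YER012W) had the highest fold change. It measured 137, 128 and 122 CPM in pex3 and 123, 119.8 and 129 CPM in WT, which overlapped, with the log2 fold change at 0.055 (SE 0.074, edgeR adjusted p 0.83). It was 0.0070 without pex3 replicate 1 and 0.093 without pex3 replicate 3. PUP3 was also positive, at 0.027. PRE7 and PRE4 were at -0.11 and -0.087 on the log2 scale, and of these PRE4 (YFR050C) did not overlap between strains. Over the 14 core genes, 12 fold changes were negative and the median was -0.066.

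**Figure D3:**
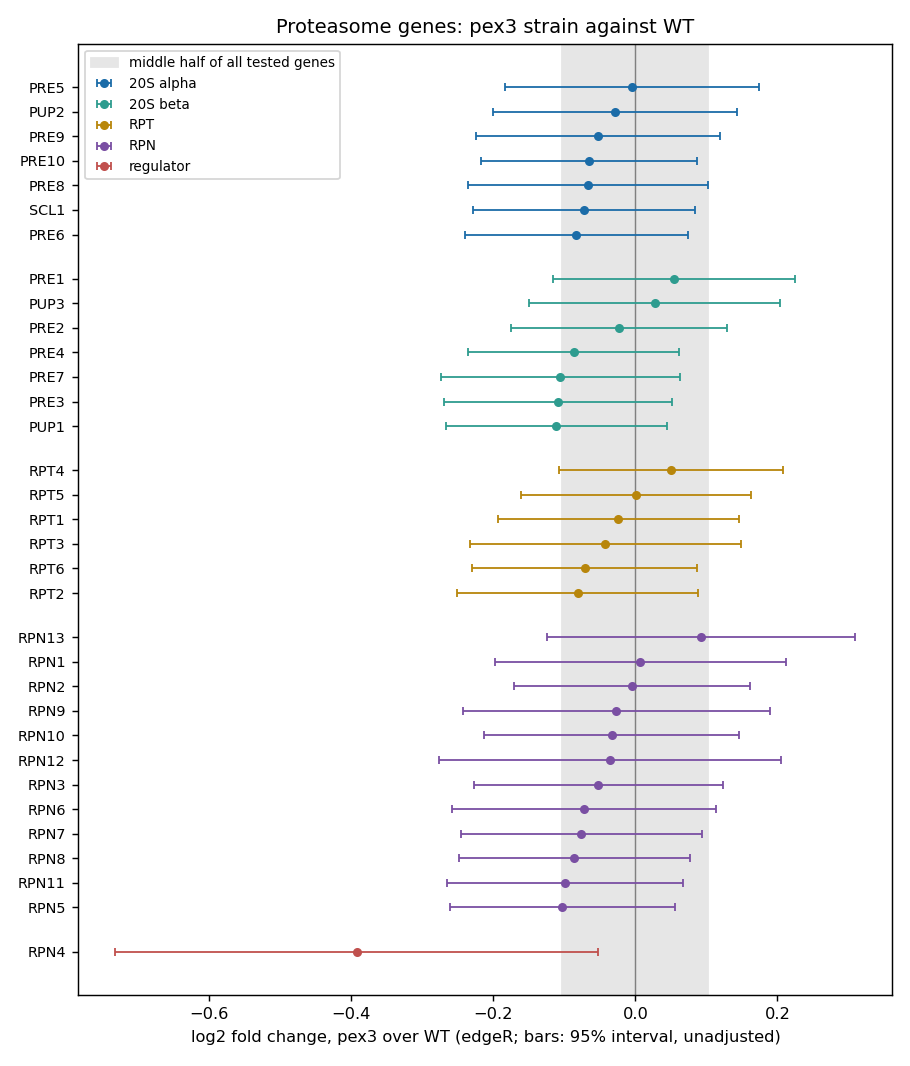
Log2 fold change of each of the 33 genes, pex3 over WT, from edgeR with its unadjusted 95% interval, by group of subunits, over a grey band that spans the interquartile range of the fold changes of all 5628 tested genes. RPN4 at -0.39 lies outside the band, while most subunits lie within it and every subunit interval crosses 0.

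The RPT subunits are the ATPases of the 19S base that unfold substrates and open the gate. Their median log2 fold change was -0.033, and 4 of 6 were negative. RPT4 (YOR259C) measured 293, 284 and 286 CPM in pex3 and 267, 283 and 283 CPM in WT. It was the single gene of the 33 whose pex3 libraries all lay above the WT libraries, by a narrow margin, with the log2 fold change at 0.05 (SE 0.068, edgeR adjusted p 0.831), or 0.023 without WT replicate 1. RPT2 (YDL007W), which takes part in gate opening, measured 274, 259.6 and 266 CPM in pex3 and 299, 275 and 272 CPM in WT. Its libraries overlapped, and its log2 fold change was the lowest of the 6 at -0.081 (SE 0.073, edgeR adjusted p 0.726), or -0.037 without WT replicate 1. RPT6 (YGL048C) measured 227, 226 and 227 CPM in pex3 and 249, 236 and 231 CPM in WT, without overlap, a log2 fold change of -0.071. RPT1, RPT3 and RPT5 were at -0.024, -0.043 and 0.0012.

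The RPN subunits complete the 19S base and form its lid. Of these, 10 of 12 had negative fold changes, with a median of -0.044. RPN5 (YDL147W), a lid scaffold, measured 280.2, 290.2 and 293 CPM in pex3 and 319, 307 and 301 CPM in WT. The strains did not overlap, and the log2 fold change was -0.10 (SE 0.068, edgeR adjusted p 0.637). RPN13 (YLR421C), a ubiquitin receptor and the least counted of the 33 genes, measured 62, 56.6 and 50.8 CPM in pex3 and 53.3, 53.4 and 52.3 CPM in WT. These overlapped, with the log2 fold change at 0.092 (SE 0.094, edgeR adjusted p 0.764). The RPN13 value was 0.021 without pex3 replicate 1 and 0.16 without pex3 replicate 3.

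RPN11 (YFR004W), the deubiquitinase of the lid, had a log2 fold change of -0.099, and the ubiquitin receptor RPN10 of -0.033. The large base scaffolds RPN1 and RPN2 were at 0.0072 and -0.0047. The lid subunits RPN3, RPN6, RPN7, RPN8, RPN9 and RPN12 ran from -0.086 (RPN8) to -0.027 (RPN9), and the libraries of all 6 overlapped between strains. The RPN median depended on single libraries, being -0.012 without WT replicate 1 and -0.098 without WT replicate 2.

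Subunit mRNAs were steady from culture to culture. Their within-strain SD of log2 CPM had a median of 0.06 over the 32 subunits, from 0.025 to 0.15. Over the 3142 tested genes within the same range of CPM the median was 0.111, and for RPN4 the SD was 0.228. The 3142 genes were not matched to the subunits in level within that range. The mean log2 CPM of the 32 subunits, relative to the WT mean, was -0.022, -0.067 and -0.04 in the pex3 libraries and 0.039, -0.033 and -0.006 in the WT libraries. WT replicate 2 lay below 1 of the pex3 libraries, so the strains overlapped. Of the 32 subunits, 18 were highest in WT replicate 1 and 10 were lowest in pex3 replicate 2. For the 20S core alone the corresponding means were -0.03, -0.082 and -0.045 in pex3 and 0.0055, -0.019 and 0.014 in WT. All pex3 libraries lay below all WT libraries, by a narrow margin (-0.03 against -0.019). For the 19S particle the means were -0.015, -0.055 and -0.036 in pex3 and 0.065, -0.044 and -0.021 in WT, which overlapped.

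**Figure D4:**
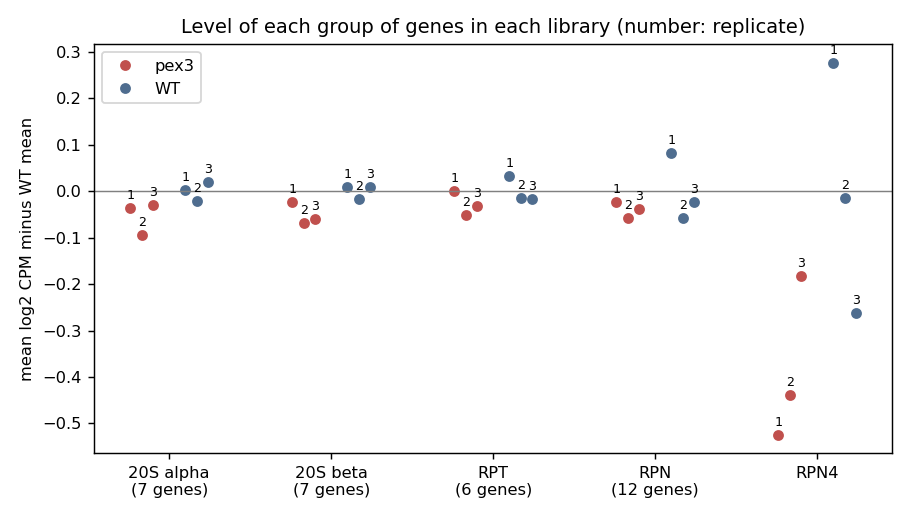
Mean log2 CPM of each group of proteasome genes in each library, relative to the WT mean of the same genes, pex3 left of WT, with replicate numbers. The subunit groups stay within 0.1 of the WT mean, whereas RPN4 ranges from -0.52 in pex3 replicate 1 to 0.28 in WT replicate 1.

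The 33 genes together took 0.701%, 0.674% and 0.68% of the counts in the pex3 libraries and 0.73%, 0.702% and 0.7% in the WT libraries. The balance between core and regulatory particle was similar. The summed CPM of the 18 genes of the 19S particle over that of the 14 core genes was 1.91 ± 0.0234 in pex3 and 1.88 ± 0.067 in WT (SD, n = 3 each), with overlapping libraries.

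The subunits of a complex are needed in fixed numbers, and their mRNA levels were compared per length. Per kilobase of coding length, the 32 subunits had a median of 203 CPM in pex3 (103 to 301) and 211 CPM in WT (105 to 324). The alpha subunits ranged from PRE8 at 178 to PUP2 at 278 CPM per kilobase in pex3, and from 186 to 284 in WT. In the beta rings PRE4 was the lowest and PRE7 the highest in both strains, 1.81-fold apart in pex3 and 1.83-fold in WT. The RPT genes were the most even, within 1.35-fold in pex3 and 1.33-fold in WT. The RPN genes spread 2.12-fold in pex3 and 2.21-fold in WT, with RPN9, RPN12 and RPN13 at the low end. RPN4 stood at 70.7 ± 8.92 in pex3 and 92.9 ± 17.4 in WT, in CPM per kilobase (SD, n = 3 each). Among 5515 genes with a coding length, the subunits lay between the 72.5th and the 91st percentile of the mean level per kilobase over all 6 libraries.

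**Figure D5:**
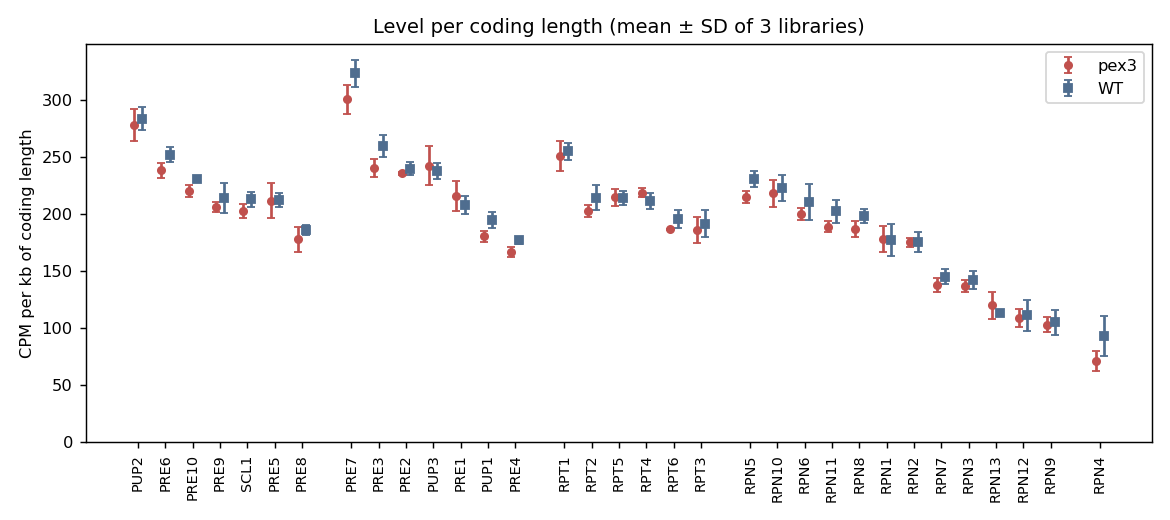
CPM per kilobase of coding length of the 33 genes in pex3 and WT, mean ± SD of 3 libraries, ordered within each group by the WT level. PRE7 is the highest at 301 in pex3 and 324 in WT, and RPN4 the lowest.

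Overlap and similarity with other genes were checked on annotated genes and coding sequences. Untranslated regions and shorter similarities were not examined, so the assignment of reads was not tested directly. None of the 33 overlaps another gene in the R64 annotation, and none shares its row of counts with another gene. The highest identity to another coding sequence over at least 100 bases was 74.8% (RPT3 and RPT4, over 155 bases), and all such similarities were among RPT genes or to CDC48, a related ATPase.

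Genes that build, feed or restrain the proteasome were examined next, in lists chosen by role. Of 17 assembly chaperones and accessory factors, 0 passed the edgeR threshold and 0 had an unadjusted p under 0.05. Their median log2 fold change was -0.06, from SEM1 (YDR363W-A), the smallest lid subunit and no member of the 33, to POC4 (YPL144W), an assembly chaperone of the alpha ring. SEM1 measured 24, 24.7 and 17.1 CPM in pex3 and 16, 28 and 33 CPM in WT, overlapping, with the log2 fold change at -0.23 (SE 0.26, edgeR adjusted p 0.795). The SEM1 value was -0.47 without WT replicate 1 and 0.0067 without WT replicate 3. POC4 measured 25.5, 20.6 and 19.8 CPM in pex3 and 10.9, 17.4 and 20.9 CPM in WT, overlapping, with 0.41 (SE 0.23, edgeR adjusted p 0.59). The POC4 value was 0.19 without WT replicate 1 and 0.64 without WT replicate 3. UMP1, the maturation factor of the core, was at -0.033.

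Among 16 genes of ubiquitin supply, shuttling and the Cdc48 segregase, 0 passed the edgeR threshold, and 2 lower genes had an unadjusted p under 0.05, where 5.15% of all tested genes were lower and 3.93% higher. These were UBI4 and DOA4, and DOA4 was named after its values were seen. UBI4 (YLL039C), the stress-induced polyubiquitin gene, measured 503, 536 and 549 CPM in pex3 and 763, 654 and 594 CPM in WT. The strains did not overlap, and the log2 fold change was -0.34 (SE 0.10, edgeR unadjusted p 0.0107, adjusted p 0.458). Leaving out single libraries moved the UBI4 value between -0.42 and -0.24. DOA4 (YDR069C), a deubiquitinase that recycles ubiquitin, was at -0.28 (SE 0.12, edgeR adjusted p 0.539), or -0.18 without WT replicate 1. The shuttle gene DDI1 (YER143W) was the highest of the list, with 87.5, 88.1 and 90.3 CPM in pex3 and 75.6, 82.1 and 88.1 CPM in WT, overlapping, at 0.11 (SE 0.077, edgeR adjusted p 0.645). The DDI1 value was 0.057 without WT replicate 1 and 0.17 without WT replicate 3. The median of the list was -0.067, and CDC48 and the ubiquitin-activating enzyme gene UBA1 were at -0.046 and 0.0041.

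Of 9 genes for quality-control ubiquitin ligases, 0 passed the edgeR threshold and 0 had an unadjusted p under 0.05, with a median of -0.032. TOM1 (YDR457W) was the highest, with 269, 245 and 249 CPM in pex3 and 221, 239 and 226 CPM in WT, without overlap, at 0.15 (SE 0.075, edgeR adjusted p 0.565). HUL4 (YJR036C) was the lowest, with 18.9, 27.7 and 32.2 CPM in pex3 and 37.6, 34.3 and 30.3 CPM in WT, overlapping, at -0.37 (SE 0.19, edgeR adjusted p 0.574), or -0.19 without pex3 replicate 1. Among 7 genes that control RPN4 transcription or Rpn4 turnover, 0 passed and 0 had an unadjusted p under 0.05 (edgeR), with a median of -0.022. HSF1, PDR1 and YAP1, activators of RPN4, were at 0.0098, -0.022 and -0.059. PDR3 (YBL005W) was the highest of the 7 at 0.083 (SE 0.099, edgeR adjusted p 0.803), with 59.8, 56.0 and 51.1 CPM in pex3 and 50.5, 49.5 and 57.4 CPM in WT, which overlapped. The PDR3 value was 0.028 without pex3 replicate 1 and 0.15 without WT replicate 3. MUB1 (YMR100W), a partner of the ligase Ubr2 that marks Rpn4 for degradation, was the lowest at -0.20 (SE 0.10, edgeR adjusted p 0.574), with 57.8, 54.6 and 53.4 CPM in pex3 and 69, 66.9 and 55.4 CPM in WT, which overlapped.

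The element upstream of the subunit genes also marks other genes. Outside the 33, 39 tested genes had GGTGGCAAA in the same window, of which 5 are in the lists above. Of the 39, 18 had positive and 21 negative fold changes, with a median of -0.016, 0 passed the edgeR threshold and 2 had an unadjusted p under 0.05, UBI4 and MPO1, both lower, where 5.15% of all tested genes were lower. In 6 of the 39 the match is that of a divergent subunit gene, since the window between them is shared: MPO1 with SCL1, GCD1 with RPT4, ALG13 with RPT6, NOP14 with RPN5, YPI1 with RPN11 and YTH1 with RPN7. The sign of the fold change was the same within 4 of these 6 pairs. GCD1 was at 0.11 on the log2 scale, ALG13 at -0.13, YPI1 at -0.19 and YTH1 at 0.044, where their partners RPT4, RPT6, RPN11 and RPN7 were at 0.05, -0.071, -0.099 and -0.076. MPO1 (YGL010W), a dioxygenase gene of fatty acid alpha-oxidation, measured 12.4, 11.1 and 12.7 CPM in pex3 and 19.5, 20.6 and 16.7 CPM in WT. It was the lowest of the 39 at -0.65 (SE 0.14, edgeR unadjusted p 0.00219, adjusted p 0.281), while SCL1 was at -0.072. NOP14 (YDL148C), a ribosome biogenesis gene, was the highest, with 233, 162 and 147 CPM in pex3 and 149, 123 and 149 CPM in WT, overlapping, at 0.36 (SE 0.17, edgeR adjusted p 0.551), while RPN5 was at -0.10. The NOP14 value was 0.14 without pex3 replicate 1.

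Many cytosolic chaperone genes respond to misfolded protein through Hsf1, which also activates RPN4. A list of chaperone genes, chosen by role and not by dependence on Hsf1, was set beside the proteasome genes. Of 15 chaperone genes, 0 passed the edgeR threshold and 6 had an unadjusted p under 0.05, all lower in pex3, where 5.15% of all tested genes were lower and 3.93% higher at that p. These 6 were HSP26, SSE2, SSA4, SIS1, HSP104 and HSP42. Over the whole list 10 fold changes were negative and 5 positive. SSA1, SSA2, HSC82 and SSB1 were at 0.021, 0.073, 0.031 and 0.12 on the log2 scale, and SSB2 is given below. Without overlap between strains, 5 of the 15 were lower and 1 higher, where 7.73% of all tested genes were lower and 8.72% higher. HSP26 (YBR072W), named after its values were seen, was at -0.52 (SE 0.092, edgeR unadjusted p 0.000509, adjusted p 0.119). The list had a median log2 fold change of -0.18, against -0.053 for the 33 proteasome genes. The difference between the lists was not tested, nor was any role of Hsf1 in these values. HSP42 (YDR171W), a small heat shock protein gene, had the lowest value at -0.61 (SE 0.20, edgeR adjusted p 0.487). It measured 147, 197 and 243 CPM in pex3 and 357, 294 and 242 CPM in WT, which overlapped. Leaving out single libraries moved the HSP42 value between -0.79 and -0.44, and that of HSP104 between -0.51 and -0.26. SSB2 (YNL209W), for a ribosome-associated Hsp70, had the highest at 0.13 (SE 0.066, edgeR adjusted p 0.57), with 1841, 1821 and 1759 CPM in pex3 and 1626, 1666 and 1654 CPM in WT, without overlap.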

How the data were processed

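Raw counts per gene were deposited by the authors for 6 strand-specific poly(A) libraries, 3 of each strain, as whole numbers. Per the submitters' processing notes, fastp 0.20.0, STAR, RSEM 1.3.3 and build R64 were used. The counting tool and its use of strand are not given in the sources used here, and the counts may be rounded RSEM estimates. Each column was matched to the sample title with its strain and number, and labels say that cultures were biological replicates.

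The test on these counts was edgeR 4.0.16 under R 4.3.3 (glmQLFit, glmQLFTest, TMM factors of 0.991 to 1.007, filterByExpr, strain alone), with Benjamini-Hochberg adjustment over 5628 rows and a threshold of 0.05. SE is the log2 fold change over the root of F. log2 CPM used a prior count of 2. The library pairs differed beyond sampling noise (chi-square per degree of freedom at least 6.79). The alternatives were DESeq2 1.42.0, limma 3.58.1 voom without and with sample quality weights, other factors, filters and thresholds, a replicate block, a loess correction (span 0.3) for coding length, and leaving out each library. Windows and coding lengths came from the R64 genome and RefSeq annotation, and similarity from BLAST+ 2.17.0.

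The members, lists and tests were chosen with earlier results of these data known. Values in every library are given for RPN4, for members called or with an unadjusted p under 0.05, for the highest and lowest fold change of each group and list, and for the catalytic subunits. Other values stand beside them where the text needs them.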

Additional observations from a re-analysis of the deposited data

How the results depend on the processing

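Under all 17 alternative fits, and at thresholds of 0.01 and 0.1, 0 of the 33 genes passed, with adjusted p-values of at least 0.104. The count over all genes moved from 10 to 58 with DESeq2, 67 with quality weights, 17 with the length correction, 1 with the replicate block, 3 at the threshold of 0.01 and 18 at 0.1, and ran from 3 to 15 without single libraries. The number of the 33 at an unadjusted p under 0.05 was 2 with quality weights (PRE3 and RPN4), 0 with the replicate block, where RPN4 stood at -0.38 (unadjusted p 0.0768), and 0 to 1 without single libraries. RPN4 stayed negative in all 17 fits, from -0.52 to -0.24, with adjusted p from 0.104 to 0.842. Leaving out single libraries moved the median of the 33 genes between -0.0895 and -0.0369, of the 20S genes between -0.0883 and -0.0485, of the RPT genes between -0.0473 and -0.0141 and of the RPN genes between -0.0983 and -0.0117.

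Of 561 values of the 33 genes under these fits, 35 changed sign, none larger than 0.0505 in size. Upper quartile factors gave PRE5 0.0034 and RPN2 0.0063. DESeq2, RLE factors and library totals gave RPT5 -0.00464, -0.00465 and -0.00251. Quality weights gave PUP3 -0.0196, RPN1 -0.0061, RPN2 0.0135, RPN3 0.0114, RPN9 0.0203 and RPN12 0.0364. The length correction gave PRE5 0.0121 and RPT1 0.0016, and with the block 0.0095 and 0.00037. Without single libraries the ranges were -0.0672 to 0.0304 for PRE5, -0.0637 to 0.00995 for PUP2, -0.0326 to 0.0609 for PUP3, -0.0505 to 0.0635 for RPN1, -0.0436 to 0.0273 for RPN2, -0.102 to 0.05001 for RPN9, -0.079 to 0.012 for RPN10, -0.131 to 0.0453 for RPN12, -0.0639 to 0.0126 for RPT1, -0.0942 to 0.00874 for RPT3, -0.0283 to 0.0239 for RPT5 and -0.474 to 0.00671 for SEM1. The cause of these changes was not tested. MPO1 passed with quality weights, at -0.75.

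The column names give same-numbered libraries of both strains a common prefix. Same-numbered libraries correlated at -0.157, 0.23 and -0.261 in their deviations from the strain means. Differently numbered pairs of a pex3 and a WT library ran from -0.244 to 0.318. With 3 libraries per strain these correlations cannot decide whether the cultures were paired. The main fit left the replicate number out, with RPN4 at -0.392, and the replicate block put it in, with RPN4 at -0.383. The block changed no call among the 33. With 3 libraries per strain, differences smaller than the intervals given for each gene could not be detected.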

Other observations

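Of the 39 tested genes with the Rpn4 element outside the proteasome, 3 were higher and 4 lower in pex3 with no overlap between strains. Over all tested genes the shares were 8.72% and 7.73%, so these counts are near the background. ACS1 (YAL054C), the acetyl-CoA synthetase gene used for growth on acetate, measured 2265, 2613 and 2636 CPM in pex3 and 2707, 2799 and 2926 CPM in WT, without overlap (log2 fold change -0.17, edgeR adjusted p 0.574). CCT6 (YDR188W), a chaperonin subunit gene, measured 487, 489.8 and 489.8 CPM in pex3 and 475, 473 and 468 CPM in WT, also without overlap (log2 fold change 0.050, edgeR adjusted p 0.819). Both were named after their values were seen.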
